A study of Homo sapiens with 24 samples.

Results

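The comparison is between MDA-MB-231 cells given fulvestrant and MDA-MB-231 cells given the solvent DMSO, with 6 of the 24 RNA libraries of the series. MDA-MB-231 is a human breast cancer line of mesenchymal type that is known for its lack of oestrogen receptor. The members were the 3 libraries labelled fulvestrant (5 nM for 5 days) and the 3 labelled DMSO (5 days). The cells were labelled wild-type in genotype and were grown in medium with fetal bovine serum, which was the same in both groups. The other groups used here were MDA-MB-231 cells given abemaciclib (500 nM, 5 days) or both drugs at those doses, and the same DMSO and fulvestrant groups of MDA-MB-453, a breast cancer line with apocrine features. The question put to these cells was how far a drug that acts on that receptor changes their transcriptome, and which sizes of change the data can limit.

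The oestrogen receptor alpha, encoded by ESR1, is a nuclear receptor that binds oestradiol and then DNA, and switches on genes such as PGR, TFF1 and GREB1 in luminal breast cells. Fulvestrant binds the receptor in place of oestradiol and leads to its degradation, so in receptor-positive cells these targets go down. It also binds the second oestrogen receptor, encoded by ESR2, and is known to act on the membrane receptor GPER1.

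RNA was counted at the 3′ end of transcripts, and a gene's level is given as CPM, its counts scaled to a library total of 1000000. The DMSO libraries held 3280637 to 3424534 counts and the fulvestrant libraries 3420958 to 3519096. Each library came from a separate culture of 1 line, as the methods of the study state, so the spread between libraries is that of cultures in a single experiment. Of 8 markers of mesenchymal breast cancer lines, 6 were above 10 CPM, VIM among them, and their summed level was 2493 to 2914 CPM under DMSO and 2733 to 2847 CPM under fulvestrant. All 6 blood cell markers were at 0 in the 6 libraries, and of the apocrine markers CLCA2, PIP and TFAP2B were at 0.

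The library labelled fulvestrant replicate 1 stood apart from the other two of its group. The distance between a pair of libraries was measured as the chi-square of their counts per degree of freedom, which is 1 where they differ by counting error only. It was 3.19 to 3.36 between DMSO libraries and 2.96 between fulvestrant replicates 2 and 3. Fulvestrant replicate 1 lay 3.36 to 4.196 from the DMSO libraries and 7.81 to 8.65 from the other fulvestrant libraries. Replicates 2 and 3 lay 6.20 to 6.32 and 5.65 to 6.03 from the DMSO libraries. In this measure the library was thus nearer to the solvent group than to its own group, while its label puts it with fulvestrant. Whether the label is right could not be settled from the files, and the comparison of 3 with 3 libraries, its calls and its limits take the label as given. Calls that turn when this library is left out are given both ways.

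The receptor genes came first. ESR1 had 0 counts in each of the 3 DMSO libraries and in each of the 3 fulvestrant libraries. PGR, the progesterone receptor, and TFF1, a secreted trefoil peptide, likewise had 0 counts in all 6. A count of 0 over a group allows a level of up to 0.300 CPM under DMSO and 0.288 CPM under fulvestrant (3 counts over the group, counting error only). ESR2 had 1 count in fulvestrant replicate 1 and none in the other 5. Among the abemaciclib and combination libraries, ESR1 was at 1.37 CPM in abemaciclib replicate 3 and 0.773 CPM in combination replicate 3 and at 0 in the other 4, and ESR2 was at 0.773 CPM in combination replicate 3 only. No fold change can be given for these genes at this depth.

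GREB1, an early oestrogen target, was at 0.914, 0 and 0 CPM in DMSO replicates 1 to 3 and at 0.866, 1.14 and 0.585 CPM in fulvestrant replicates 1 to 3, which is 3, 0 and 0 counts against 3, 4 and 2. The groups overlapped, and the gene was too low to be tested. GPER1 was at 3.66, 1.46 and 2.42 CPM under DMSO and at 2.02, 1.42 and 6.72 CPM under fulvestrant. Its log2 fold change was 0.43 ± 0.58 (SE, n = 3 per group, adjusted p = 0.928, edgeR), with 95% limits from 0.600-fold to 3.06-fold, and without fulvestrant replicate 3 the value was negative at -0.53.

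Genes that oestrogen raises in luminal cells and that MDA-MB-231 also expresses were measured far more closely. CCND1, the cyclin D1 gene, was at 554, 510 and 565 CPM under DMSO and at 574, 504 and 520 CPM under fulvestrant. The groups overlapped, and the 95% limits on its change ran from 0.875-fold to 1.11-fold. KRT19, a luminal keratin, was at 102, 82.3 and 74.5 CPM under DMSO and 92.7, 87.5 and 73.7 CPM under fulvestrant, with limits from 0.832-fold to 1.17-fold. XBP1, a transcription factor of the secretory pathway, had limits from 0.729-fold to 1.18-fold. NRIP1, a corepressor of nuclear receptors, was lower in level (5.55 to 11.6 CPM under DMSO, 6.07 to 7.89 CPM under fulvestrant), and its limits ran from 0.468-fold to 1.20-fold.

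CTSD, the lysosomal protease cathepsin D, and IGFBP4, an IGF-binding protein, sat higher under fulvestrant without passing the adjusted test. CTSD was at 87.8, 89.9 and 94.2 CPM under DMSO and 93.6, 107 and 127 CPM under fulvestrant, with fulvestrant replicate 1 inside the DMSO range. Its log2 fold change was 0.28 ± 0.12 (SE, n = 3, adjusted p = 0.616, edgeR), and 0.38 ± 0.12 with an adjusted p of 0.0822 without fulvestrant replicate 1. IGFBP4 was at 300.2, 317 and 322 CPM under DMSO and 292, 390.2 and 366 CPM under fulvestrant, so replicate 1 lay below the solvent libraries and replicates 2 and 3 above them.

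**Figure D1:**
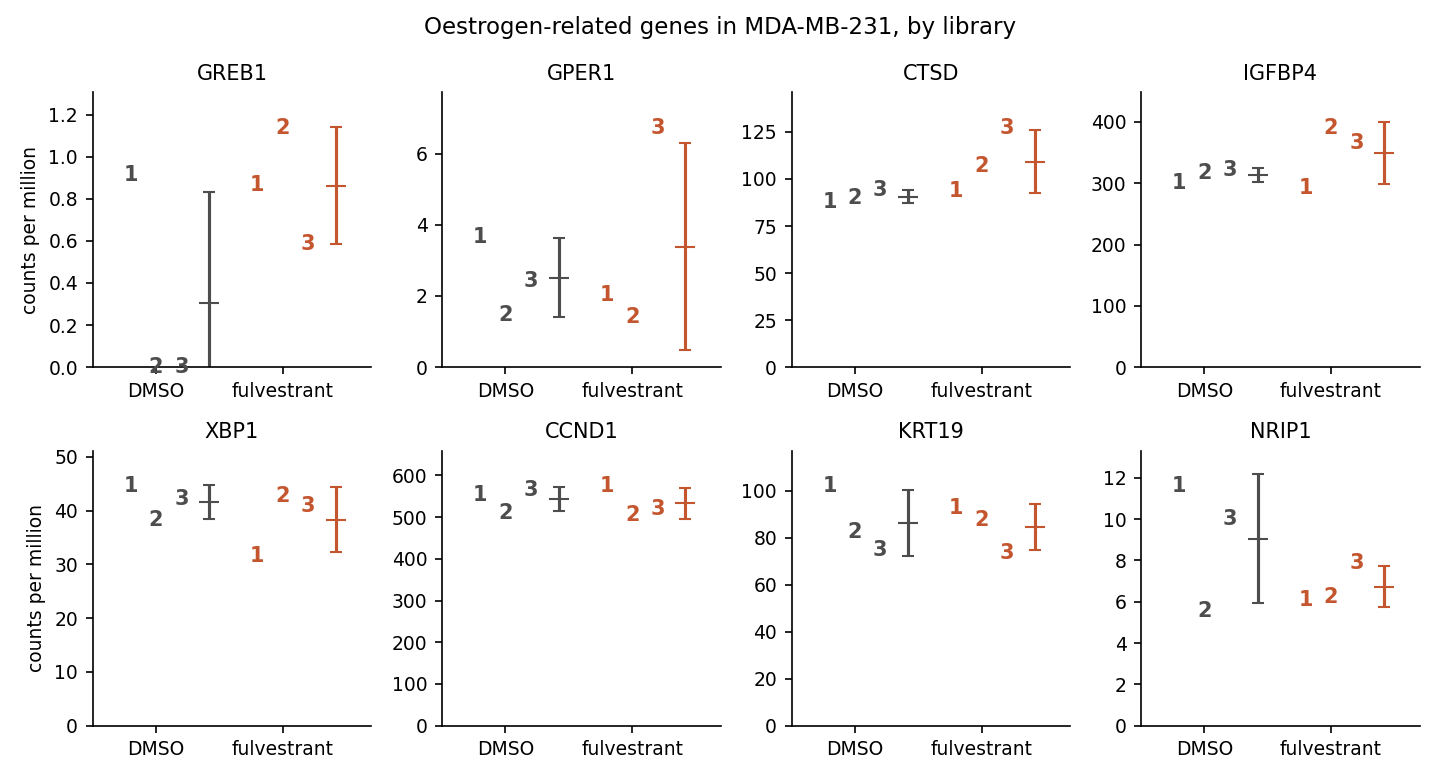
CPM of 8 oestrogen-related genes (vertical axes, linear, from 0) in the DMSO and fulvestrant libraries of MDA-MB-231. Digits mark the replicates, and horizontal bars with error bars are the mean and SD of 3 libraries; only CTSD and IGFBP4 have 2 fulvestrant libraries clear above the DMSO range, and replicate 1 is not among them.

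Of 61 symbols on a list of classical oestrogen-induced genes, 59 were in the table and 39 had enough counts to be tested. None was called at an adjusted p below 0.05, against 0% of all genes tested. At an unadjusted p below 0.05, 2 of the 39 (5.13%) were higher, CTSD and B4GALT1, and 0 were lower, against 2.93% higher and 4.14% lower over all genes. The median log2 fold change of the 39 was -0.02, beside 0.00 over all genes tested, and 29 of the 39 had 95% limits inside a 2-fold change. Without fulvestrant replicate 1 the median was 0.02, so its sign turned. B4GALT1, a galactosyltransferase of the Golgi, was at 62.8, 60.7 and 62.4 CPM under DMSO and 69.9, 81.3 and 92.1 CPM under fulvestrant, which do not overlap, with an adjusted p of 0.451 (edgeR). Without fulvestrant replicate 1 it was called, as the 1 gene of the 39, with a log2 fold change of 0.49 ± 0.14 (SE) and an adjusted p of 0.0387 (edgeR), where 1.77% of all genes were called.

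The machinery around the receptor was present in the cells. All 22 coregulators and pioneer factors on the list were tested, with 0 higher and 1 lower (4.55%) at an unadjusted p below 0.05. Over all genes tested, 2.93% were higher and 4.14% lower at that threshold. The lower gene was MED1, a Mediator subunit that binds nuclear receptors, at 206, 208 and 191 CPM under DMSO and 196, 157 and 161 CPM under fulvestrant. Its adjusted p was 0.661 (edgeR), and fulvestrant replicate 1 lay inside the DMSO range. Of 10 receptors of the oestrogen and related families, 4 were tested, and NR3C1, the glucocorticoid receptor, had limits from 0.708-fold to 1.03-fold. The consensus oestrogen response element, the palindrome to which the receptor binds, stood in the 250 bases before the start in 12 of 27305 RefSeq promoters of GRCh38.p14 (0.0439%, read on both strands), and in 1 of the 8755 that belong to a tested gene. That gene, ZNF669, had a log2 fold change of 0.56 ± 0.61 (SE).

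Over the transcriptome, edgeR's quasi-likelihood test called 0 of 11314 genes at an adjusted p below 0.05 (0%), and the smallest adjusted p was 0.215. DESeq2 and limma-voom also called 0. With edgeR, 799 genes (7.06%) had p below 0.05 before adjustment, 331 of them higher and 468 lower; the number was 737 with DESeq2 and 775 with limma-voom, where 565.7 of 11314 would pass if no gene differed. The groups did not overlap in CPM for 588 genes that were higher under fulvestrant (5.20%) and for 611 that were lower (5.40%). With 3 against 3 libraries and no gene that differed, a share of about 0.1 would be separated in one direction or the other. The count of 0 depended on the filter for low counts. With no filter, 21397 genes were tested and 14 passed, of which 10 were lower and 3 were mitochondrial transcripts. In the same model and libraries, abemaciclib against DMSO called 3815 genes (33.7%).

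How large a change could have been missed depended on the level of the gene. Of 11306 genes with an estimable interval, 8075 (71.4%) had 95% limits inside a 2-fold change in either direction, 44.6% inside 1.5-fold and 94.2% inside 4-fold. Above 200 CPM, 829 of 830 genes were inside 2-fold and 98.4% inside 1.5-fold. Between 50 and 200 CPM, 99.9% of genes were inside 2-fold, and between 10 and 50 CPM 92.5%. Below 10 CPM only 16.8% of 3477 genes were, so for most genes there the limits leave room for a 2-fold change. The limits are those of single genes, so about 5% of them would miss the true value. Of the 7829 genes of at least 10 CPM, 2 had an estimate beyond 2-fold, and the largest log2 fold change among them was 1.05.

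**Figure D2:**
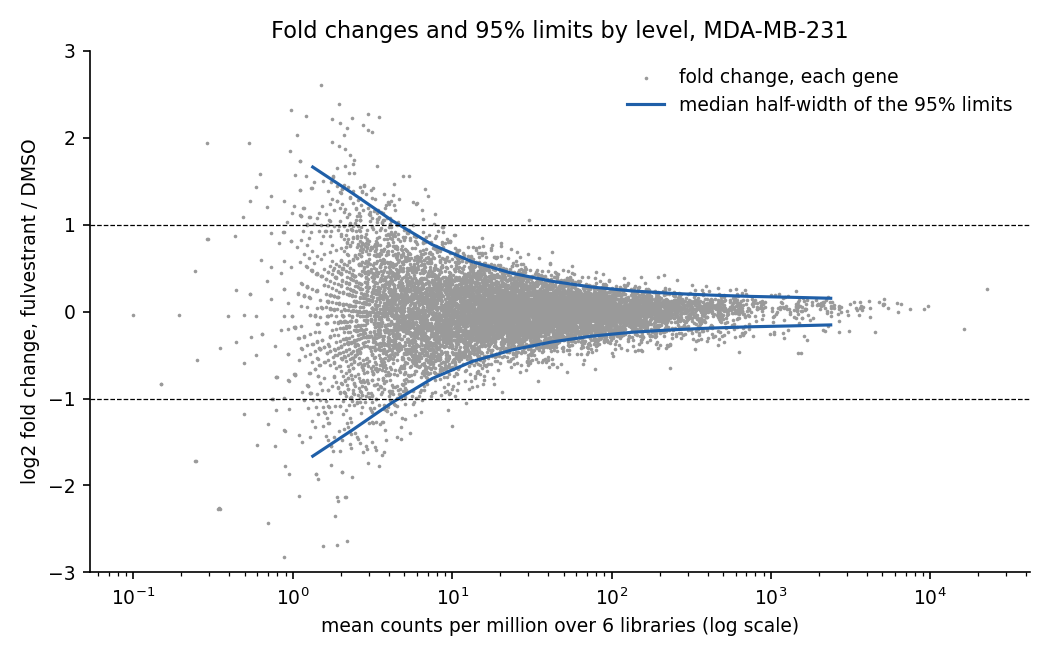
Log2 fold change of each gene, fulvestrant over DMSO (vertical axis), by its mean CPM over the 6 libraries (horizontal axis, log scale). Blue lines are the median half-width of the 95% limits in bins of at least 20 genes and dashed lines mark a 2-fold change; of 11306 genes, 4 lie outside the axis. The median half-width passes 2-fold only below 10 CPM.

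The genes of at least 10 CPM with the smallest unadjusted p show what the strongest candidates look like. They were chosen on these values. RN7SL1, the RNA of the signal recognition particle, was at 18.0, 21.9 and 19.1 CPM under DMSO and at 48.2, 30.7 and 43.0 CPM under fulvestrant. The groups do not overlap, replicate 1 was the highest of all, and the log2 fold change was 1.05 ± 0.22 (SE, n = 3, adjusted p = 0.215, edgeR). RN7SL1 has near-identical copies in the genome, so its counts are uncertain. CTDSP1, a phosphatase of RNA polymerase II, was at 34.1, 29.5 and 34.2 CPM against 58.6, 52.6 and 45.6 CPM. MED24, a Mediator subunit, was at 214, 235 and 230 CPM against 257, 281 and 332 CPM. These 3 genes had all fulvestrant libraries above all DMSO libraries.

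Among the lower genes, SRPK2, a kinase of splicing factors, was at 64.6, 71.8 and 59.7 CPM under DMSO and 48.5, 33.5 and 39.2 CPM under fulvestrant. Its log2 fold change was -0.69 ± 0.15 (SE, n = 3, adjusted p = 0.215, edgeR), with limits from 0.499-fold to 0.769-fold. SNX27, an endosomal sorting protein, was at 60.0, 50.8 and 55.4 CPM against 37.8, 31.0 and 37.4 CPM. ZBTB20, a zinc-finger repressor, was at 23.8, 23.9 and 22.4 CPM against 14.2, 11.7 and 13.4 CPM. For these genes replicate 1 was on the side of its own group. Exons of SRPK2 overlap those of KMT2E on the other strand, and exons of ZBTB20, SNX27 and CTDSP1 also overlap transcripts of the other strand. Whether counting used strand is not given in the sources used here.

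MT-ND3, a mitochondrial subunit of complex I, had replicate 1 close to the solvent libraries. It was at 19982, 20815 and 21223 CPM under DMSO, 21696 CPM in replicate 1 and 25695 and 26772 CPM in replicates 2 and 3. Replicates 2 and 3 lay together, and replicate 1 lay between them and the DMSO libraries. Without replicate 1, MT-ND3 (adjusted p = 0.000178, edgeR; 0.274 with it), MED24 (0.00554; 0.296), SRPK2 (0.00192), RN7SL1 (0.0324), SNX27 (0.0322) and ZBTB20 (0.0364) were called, and CTDSP1 was not (0.125).

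**Figure D3:**
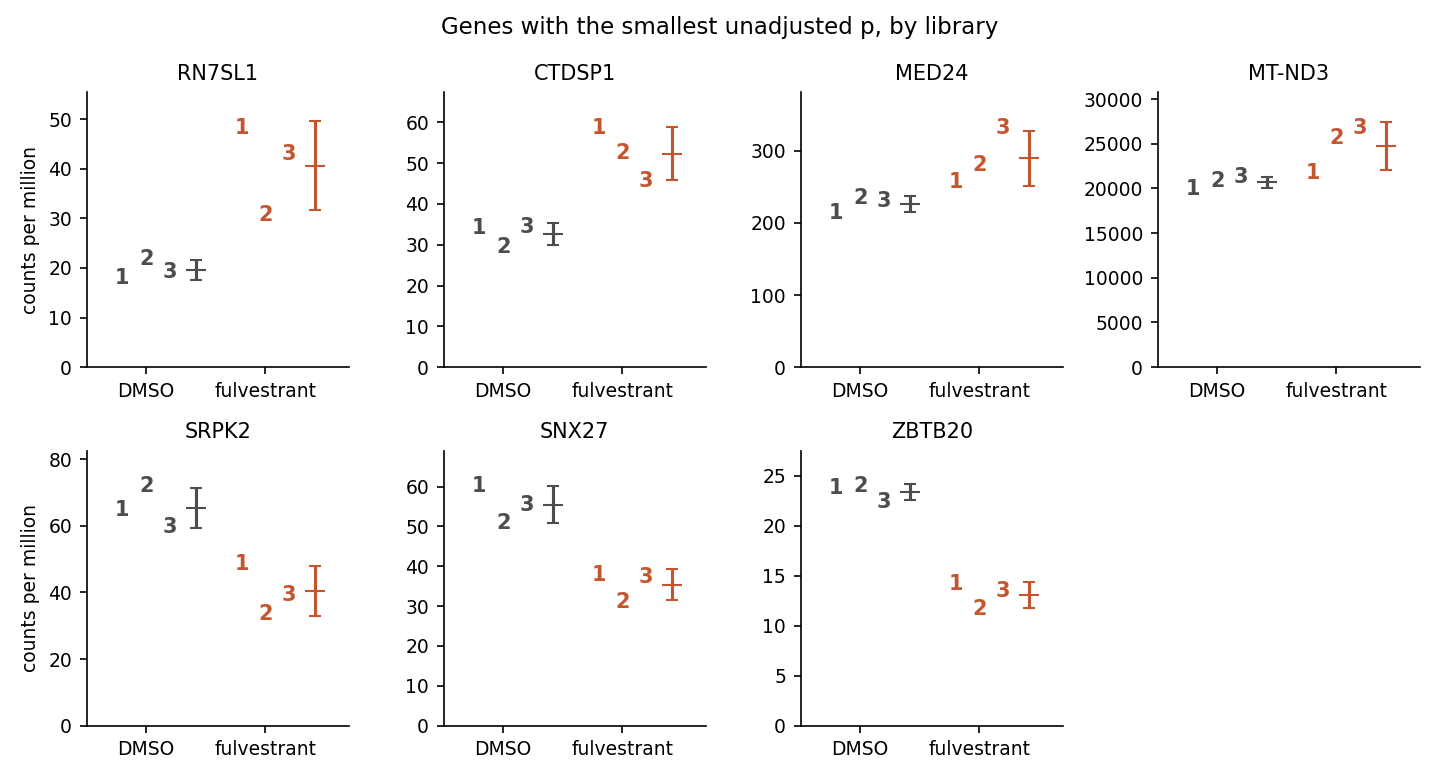
CPM (vertical axes, linear, from 0) of 4 higher and 3 lower genes of at least 10 CPM with the smallest unadjusted p. Digits mark the replicates and bars are the mean and SD of 3 libraries; in MT-ND3 the digit 1 of fulvestrant sits next to the DMSO libraries, while in SNX27 and ZBTB20 it sits with its group.

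Gene lists for other processes that the drug or the culture could touch were read next. With all 6 libraries none of them could hold a called gene, since 0 of 11314 genes were called. E2F target genes, which drive DNA replication, were all tested: 2 of 77 were higher and 4 lower at an unadjusted p below 0.05 (7.79%, beside 7.06% of all genes), the median log2 fold change was -0.01, and 74 of the 77 had limits inside 2-fold. MKI67, the proliferation antigen Ki-67, was at 493, 510 and 546 CPM under DMSO, 539.8 CPM in fulvestrant replicate 1 and 374 and 394 CPM in replicates 2 and 3. CCNA2, cyclin A2, was at 123, 104 and 105 CPM against 82.9, 123 and 89.7 CPM, and RB1, the retinoblastoma gene, at 56.7, 49.9 and 52.4 CPM against 49.1, 58.3 and 56.1 CPM. MKI67 thus had replicate 1 within the DMSO range and both others under it, while CCNA2 and RB1 overlapped. Without fulvestrant replicate 1, 3 of the 77 were called (3.90%, against 1.77% of all genes). H2AZ1 was higher, and TOP2A, a topoisomerase, and MKI67 were lower. The MKI67 value was -0.42 ± 0.095 on the log2 scale (SE), with an edgeR adjusted p of 0.00896 against 0.634 with all 6 libraries. These calls, and those in the other lists, are set beside the adenine content of the transcripts further below, whose part in them was not tested.

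The 16 steroid receptor chaperones were all inside 2-fold. HSP90AA1, the inducible HSP90 that folds steroid receptors, was at 4903, 4884 and 4854 CPM under DMSO, 4820 CPM in fulvestrant replicate 1 and 3731 and 3846 CPM in replicates 2 and 3, with an adjusted p of 0.534 (edgeR). Without replicate 1 it was the 1 chaperone of the 16 called (6.25%, against 1.77% of all genes). Its value there was -0.35 ± 0.076 on the log2 scale (SE, edgeR, adjusted p = 0.00454). Of 39 lysosome genes, 3 were higher and 1 lower at an unadjusted p below 0.05. Without replicate 1, CD63, a membrane protein of lysosomes, was called higher, as the 1 gene of the 39 (2.56%, against 1.77% of all genes). Of 24 p53 targets, 3 were higher, among them GADD45A, which acts in growth arrest after DNA damage, and 0 were lower. By sign alone, 12 of the 24 were higher and 12 lower, with a median log2 fold change of -0.02. Over all genes tested, 2.93% were higher and 4.14% lower at an unadjusted p below 0.05. Of 23 genes of cholesterol synthesis, 2 were higher, and the median was 0.06. The lists for the interferon response (0 higher, 2 lower of 38), the ATF4 response (0 of 25), the unfolded protein response (1 lower of 22), hypoxia and glycolysis (1 higher of 31), immediate early and heat stress genes (0 of 20) and the aryl hydrocarbon and pregnane receptors (0 of 6) held few such genes, and their median log2 fold changes lay between -0.04 and 0.03.

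Whether replicate 1 carries the result was tested by leaving out each of the 6 libraries. Without any 1 of the 3 DMSO libraries 0 genes were called, without fulvestrant replicate 2 0, and without fulvestrant replicate 3 1. Without fulvestrant replicate 1, 205 of 11596 genes were called (1.77%): 36 rose and 169 fell. The unadjusted p was below 0.05 for 1419 genes (12.2%), of which 562 (4.85%) were higher and 857 (7.39%) lower. The count of 0 with all libraries therefore depended on that library. DESeq2 and limma-voom called 258 and 191 genes without it, of which 167 and 166 were among the 205. The count was 96, 93 or 123 when DMSO replicate 1, 2 or 3 was left out as well. At the threshold, ZBTB7A was just inside with an adjusted p of 0.04996 (edgeR) and DIAPH3 just outside with 0.0513.

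The 205 genes were chosen on replicates 2 and 3 against DMSO, and replicate 1 is described at them without a test. The median log2 fold change in the fit without replicate 1 was -0.54 for the 169 lower genes and 0.48 for the 36 higher genes. In replicate 1 the medians of the difference from the DMSO mean were 0.01 and 0.01. Replicate 1 lay within the range of the DMSO libraries at 93 of the 205 (45.4%), against 47.9% of all genes of at least 10 CPM. In the median, replicate 1 was thus at the level of the DMSO mean at these genes.

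Single genes show it in the counts. PURA, a protein that binds DNA and RNA, was at 802, 709 and 696 CPM under DMSO, 708 CPM in fulvestrant replicate 1 and 438 and 445 CPM in replicates 2 and 3. EIF5B, which joins the ribosomal subunits, was at 1136, 1146 and 1111 CPM, then 1128 CPM, then 836 and 875 CPM. SRRM1, a splicing factor, was at 579, 560.4 and 563 CPM, then 594 CPM, then 362 and 377 CPM. In each of the 3 genes replicates 2 and 3 were close to each other and below the 4 other libraries. H4C3, a histone gene, was at 2558, 2116 and 2423 CPM under DMSO, 3025 CPM in replicate 1 and 1490 and 1535 CPM in replicates 2 and 3, so replicate 1 was above the solvent and the others were below it.

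By size among genes of at least 10 CPM, the largest changes without replicate 1 were in RPL36AP26, a ribosomal protein pseudogene (log2 fold change 1.02), RN7SL1 (0.91), CMAS, an enzyme of sialic acid activation (0.75), and AL136380.1 (0.70) on the higher side. On the lower side they were ZNF236, a zinc-finger protein (-1.36), TRMT10B, a tRNA methyltransferase (-1.29), KIF3A, a kinesin of the cilium (-1.22), and the mitochondrial pseudogene MTND1P23 (-1.22). CMAS was at 35.1, 30.7 and 34.2 CPM under DMSO, 34.4 CPM in replicate 1 and 56.3 and 55.2 CPM in the others. KIF3A was at 23.8, 8.47 and 25.1 CPM, then 27.4 CPM, then 7.67 and 8.48 CPM, so DMSO replicate 2 was as low as fulvestrant replicates 2 and 3. Reads of the pseudogenes can be shared with their parent genes, and their values are uncertain.

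The genes at which replicate 1 was farthest from the mean of replicates 2 and 3 include RNU4ATAC, a spliceosomal RNA, at 111, 102 and 159 CPM under DMSO and 289, 47.7 and 97.0 CPM under fulvestrant. PMM2, which makes mannose phosphate, was at 10.7, 12.6 and 6.97 CPM against 25.1, 6.54 and 9.06 CPM. On the other side, WTIP, a cell junction protein, was at 8.84, 11.7 and 13.0 CPM against 4.33, 15.9 and 14.6 CPM. These genes were picked for that distance and are given as a description.

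**Figure D4:**
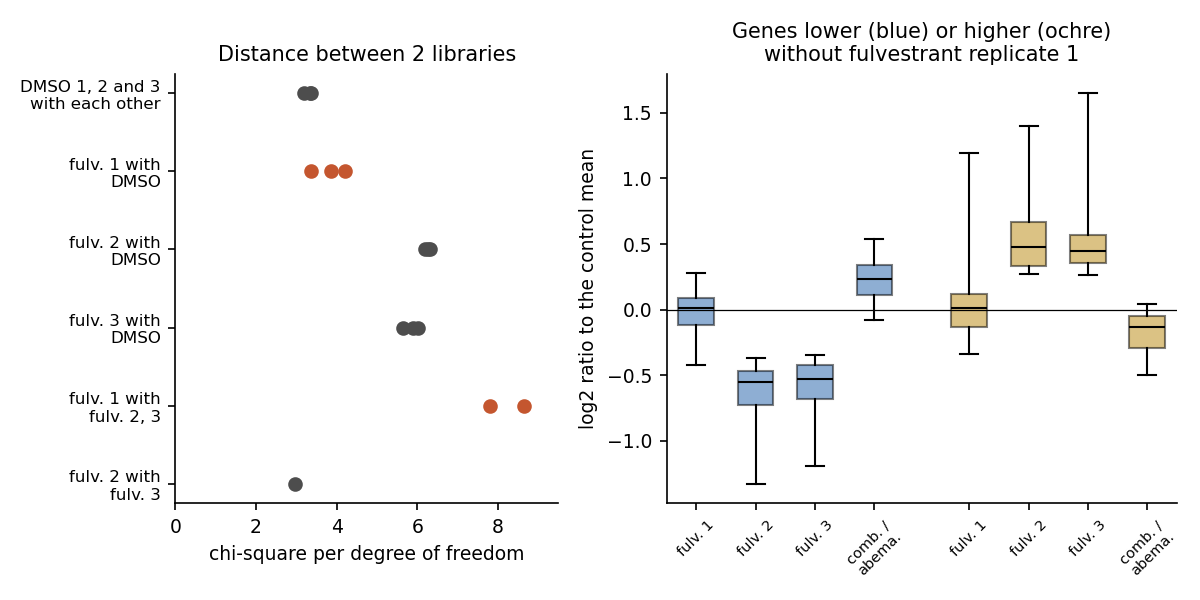
Left, chi-square per degree of freedom between pairs of libraries (horizontal axis), with pairs that include fulvestrant replicate 1 in orange. Right, log2 ratio of each fulvestrant library to the DMSO mean (1 CPM added) and fitted log2 ratio of combination to abemaciclib at the 169 genes called lower (blue) and the 36 called higher (ochre) without replicate 1; boxes are quartiles with the median, whiskers the 5th and 95th percentiles. Replicate 1 is centred on 0 and the combination lies on the other side of 0.

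The sequences of the 169 lower genes shared a feature that was not used to choose them, stretches rich in adenine, and it was looked for after the values were known. For each gene the canonical transcript was read in windows of 20 bases, and the window with the most adenines was kept, with the last 300 bases left out. Of the genes called lower without replicate 1, of at least 10 CPM and with such a window, 145 of 152 (95.4%) had 14 or more adenines in it. Of the genes called higher it was 1 of 27 (3.70%), and of all genes of at least 10 CPM 3992 of 7643 (52.2%). Among the list genes called lower, TOP2A had 17 adenines in its window, HSP90AA1 16 and MKI67 14, and MT-ATP8 had no window. Among those called higher, B4GALT1 had 13, H2AZ1 12, CD63 11 and MT-ND3 9. The windows of 6 genes that were lower and 3 that were higher in replicates 2 and 3 are given from 5′ to 3′ on the transcript strand, with every adenine in capitals.
EIF5B: AAAAAgAAAAAAgAgAAAAA
USP42: AAAAAAAAgAAgAAgAAAAA
SRPK2: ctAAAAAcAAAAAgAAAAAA
TTC3: cAAAAAAAAgAAgcAAAAAA
HSP90AA1: AAAgAAgAAgAAAAAgAAAA
MT-RNR2: AAAggttAAAAAAAgtAAAA
BSG: cAgAAtgAcAAAggcAAgAA
MED24: AAAAtcActgAtAAcAtcAA
H2AZ1: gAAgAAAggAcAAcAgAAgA

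In build GRCh38 with GENCODE annotation, the window of EIF5B lies at chr2:99360327-99360346 on the plus strand and that of USP42, a deubiquitinase, at chr7:6156812-6156831 on the plus strand. Those of SRPK2 at chr7:105143298-105143317 on the minus strand and of HSP90AA1 at chr14:102084922-102084941 on the minus strand are also in coding exons, as is that of TTC3, a ubiquitin ligase, at chr21:37151942-37151961 on the plus strand. The window of MT-RNR2, the large mitochondrial ribosomal RNA, lies at chrM:2450-2469. On the higher side, BSG, the membrane protein basigin, has its window at chr19:582533-582552 on the plus strand, MED24 at chr17:40026312-40026331 on the minus strand and H2AZ1, a histone variant, at chr4:99948470-99948489 on the minus strand, all in coding exons. Exons of EIF5B, SRPK2, HSP90AA1, TTC3 and H2AZ1 overlap transcripts of the other strand, and HSP90AA1 has a near-identical pseudogene with the same window, so their counts are uncertain. EIF5B holds 17 adenines of the 20, HSP90AA1 16, and BSG and MED24 11 each.

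The same property was then read over the 7643 genes of at least 10 CPM with a window. In replicates 2 and 3 the class medians lay from 0.07 to 0.09 up to 13 adenines and were below 0 from 14 adenines on. Genes with at most 9 adenines in the window (513 genes) had median log2 ratios to DMSO of 0.07 in replicate 2 and 0.08 in replicate 3, and genes with at least 16 (1900 genes) had -0.12 and -0.12. In replicate 1 the values were -0.02 and 0.02. Transcripts with more adenines are also longer, with a median of 5579 bases in the top class against 1105 in the bottom one. Among transcripts of 3000 to 6000 bases, genes with 12 or 13 adenines stood at 0.09 and 0.07 in replicates 2 and 3, and genes with at least 16 at -0.11 and -0.10.

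The difference between the top and the bottom class was then read in each MDA-MB-231 library against its own controls. For a control library these were the other 2 controls. It was -0.03, 0.00 and 0.05 on the log2 scale in DMSO replicates 1 to 3, and 0.04, -0.19 and -0.21 in fulvestrant replicates 1 to 3. In abemaciclib replicates 1 to 3 it was -0.11, -0.13 and 0.26, and in the combination 0.11, 0.26 and 0.14. In MDA-MB-453 it was read at the same genes, which were chosen on their level in MDA-MB-231. There it was 0.32, 0.32 and 0.08 in fulvestrant replicates 1 to 3 and -0.04 to 0.04 in the DMSO libraries. With abemaciclib in that line it was -0.16, 0.03 and 0.10, and in the combination -0.02, -0.05 and -0.05. A control library was set against 2 libraries and a treated one against 3. The part of this property in the 205 calls was not tested.

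**Figure D5:**
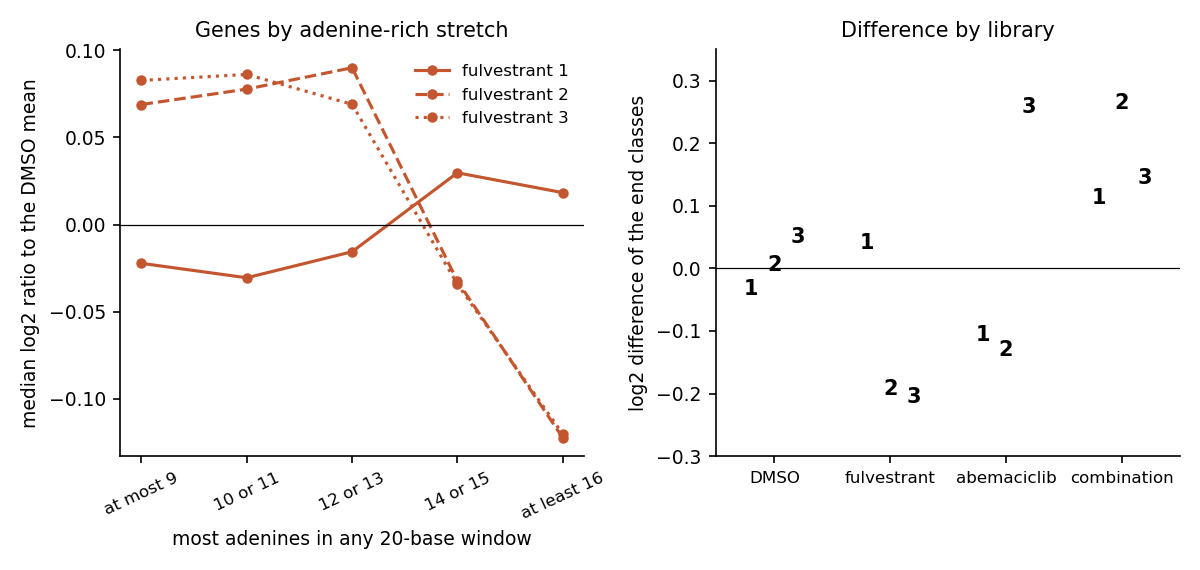
Left, median log2 ratio to the DMSO mean (vertical axis) of genes in 5 classes of the most adenines in any 20-base window, for each fulvestrant library. Right, difference between the class of at least 16 and the class of at most 9 adenines in each MDA-MB-231 library against its control mean (digits mark replicates); fulvestrant 2 and 3 are at -0.19 and -0.21, and the 3 abemaciclib libraries run from -0.13 to 0.26.

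Mitochondrial transcripts made up 9.01% ± 0.261 of the counts under fulvestrant and 8.83% ± 0.213 under DMSO (SD, n = 3 each). The difference of 0.182 percentage points gave p = 0.5 in a two-sided exact permutation test, where 0.1 is the smallest p that 3 against 3 libraries allow. Of the 13 protein-coding genes of the mitochondrial genome, 1 was higher and 2 were lower at an unadjusted p below 0.05 (23.1%, against 7.06% of all genes). Without replicate 1, MT-ND3 was called higher and MT-ATP8 lower, 2 of the 13 (15.4%, against 1.77%). Within the mitochondrial share the libraries differed more. The 2 mitochondrial ribosomal RNAs took 1.92%, 2.08% and 2.28% of the counts under DMSO, 2.66% in fulvestrant replicate 1 and 1.45% and 1.54% in replicates 2 and 3. MT-ATP8, a subunit of the ATP synthase whose gene overlaps MT-ATP6, was at 1766, 1865 and 1802 CPM under DMSO, 1903 CPM in replicate 1 and 1010 and 979.8 CPM in replicates 2 and 3. Replicate 1 was the highest and replicates 2 and 3 the lowest of the 6 libraries in both measures.

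The combination and abemaciclib groups give a second reading of fulvestrant in the same cells, in libraries not shared with the first. Fulvestrant on top of abemaciclib called 3 of 11314 genes (0.0265%). RRM2, a subunit of ribonucleotide reductase (log2 fold change -0.58 ± 0.11, SE), and CCN2, a secreted matrix protein (-0.67 ± 0.11), fell, and CHD1, a chromatin remodeller (0.74 ± 0.13), rose, with edgeR's adjusted p of 0.00721, 0.00138 and 0.00721. CHD1 was at 51.4, 50.7 and 66.3 CPM under abemaciclib and 87.3, 99.1 and 96.1 CPM with both drugs, while without abemaciclib it was at 116, 124 and 119 CPM under DMSO and 114, 83.5 and 86.5 CPM under fulvestrant. This count also hung on single libraries: it was 0 without abemaciclib replicate 1 and 96 without abemaciclib replicate 3.

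At the 205 genes the second reading ran the other way. Combination against abemaciclib had the same direction at 19 of the 205 (9.27%), where 41.0% of all 11314 genes did, and its median log2 fold change was 0.23 at the 169 lower genes and -0.13 at the 36 higher genes. In MDA-MB-453, fulvestrant against DMSO had the same direction at 6 of the 205 (2.93%), where 36.4% of 11461 genes did. Across 7829 genes of at least 10 CPM, Pearson's r between the fulvestrant fold changes without and with abemaciclib was -0.17, or -0.27 without fulvestrant replicate 1. The points are genes of 1 set of cultures and share base composition, so r is given as a description.

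The mean of both fulvestrant effects called 0 of 11314 genes (0%, edgeR), with 642 at an unadjusted p below 0.05. DESeq2 also called 0. The interaction, in which the effect of fulvestrant differs with and without abemaciclib, called 14 genes (0.124%). In 12 of them the effect was higher with abemaciclib, with CEP83, a centriole protein, the largest: 12.8, 13.1 and 15.8 CPM under DMSO, 6.07, 7.39 and 8.77 CPM under fulvestrant, 5.11, 9.12 and 7.67 CPM under abemaciclib and 17.8, 18.0 and 18.0 CPM with both. The others among the 12 include SRPK2, TTC3, EIF5B, SRRM1 and MT-ATP8, whose windows or replicates are described above, and the 2 lower ones were H2AZ1 and CCN2. Without fulvestrant replicate 1 the interaction called 449 genes, with DESeq2 65, and with the replicate numbers as a block 6.

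The effect of fulvestrant differed between MDA-MB-453 and MDA-MB-231 at 135 of 12750 genes (1.06%). In MDA-MB-453 the effect was the higher one at 94 of them and the lower one at 41. In MDA-MB-453 itself 39 genes were called in that model (0.306%). The largest fitted value was that of NXN, nucleoredoxin, and it rests on few counts in MDA-MB-453: 1, 2 and 9 under DMSO and 0, 0 and 0 under fulvestrant, beside 97, 86 and 85 and 105, 123 and 80 in MDA-MB-231. Without MDA-MB-231 fulvestrant replicate 1 the count was 615, with DESeq2 it was 374, and with the replicate numbers as a block it was 37.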

How the data were processed

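The authors trimmed the single-end reads of the 3′ libraries (QuantSeq FWD), aligned them to hg38 with STAR and counted reads per gene with featureCounts, and the deposited values are raw counts per gene symbol, not normalised. The 12 MDA-MB-231 libraries (4 groups of 3) were fitted together with edgeR 4.0.16 (quasi-likelihood test, TMM factors, filterByExpr), with p-values adjusted by Benjamini-Hochberg over all genes tested and a threshold of 0.05. The authors' own test was DESeq2, which was run here as an alternative (version 1.42.0), with limma-voom (limma 3.58.1, R 4.3.3). The 95% limits are Wald intervals from the fitted weights and the posterior quasi-dispersion. CPM were counts over the library total. The interaction and mean effect came from the same fit, and the difference between lines from a model of all 24 libraries. Library shares were compared with exact permutation tests. The row without a gene name held 0 counts. Of 11314 genes tested, 10755 had an adenine window in GENCODE transcripts of GRCh38.

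Genes were named by fixed rules: 16 receptor, target and cell cycle genes; the 4 smallest p in each direction at a mean of at least 10 CPM; the 4 largest changes in each direction without fulvestrant replicate 1; the 3 genes in each direction where that replicate lay farthest from the other two; the smallest p in each direction per list; and the largest called change of the other comparisons. USP42, TTC3, EIF5B, SRRM1, PURA, H4C3, BSG, H2AZ1, MT-RNR2, ZNF669 and the threshold genes were chosen after their values were seen. Some genes that the rules name are not reported here. Members, lists and tests were chosen with earlier results of these data known. The alternatives were other size factors, filters, tools and subsets of libraries, and a replicate block. The test was tried on simulated data. Depth was about the same in all 6 libraries, at 3280637 to 3519096 counts, and intervals for counts cover counting error only.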

Additional observations from a re-analysis of the deposited data

Results flagged for a closer look

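The effect of fulvestrant differed with and without abemaciclib at 14 genes by the interaction term of edgeR (adjusted p below 0.05, 12 of them higher with abemaciclib), and fulvestrant replicate 1 moved this number to 449 when it was left out. The effect differed between MDA-MB-453 and MDA-MB-231 at 135 genes by the term for the difference between lines in the 24-library model, and at 615 without that library. The test for 1 value far from its group was not run, since it takes groups of at least 4.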

How the results depend on the processing

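The number of genes called for fulvestrant against DMSO was 0 with DESeq2 size factors, with genes of at least 10 CPM, with the 6 libraries alone, with the replicate block, with DESeq2 and with limma-voom. It was 14 with no filter, where edgeR estimated no spread between genes beyond its trend (with the filter, 34.63 prior degrees of freedom), and 96 with both first replicates left out. When 1 library at a time was left out it ran from 0 to 205. With 1 fulvestrant library kept, which assumes that the lone sample varies like the other groups (chosen after seeing the data), it was 6 for replicate 1, 42 for replicate 2 and 18 for replicate 3. The number at an unadjusted p below 0.05 was 1302 with both first replicates left out and 613 to 1419 when 1 library was left out. The share of genes with limits inside 2-fold, 71.4% in the main fit, depended on the filter. It was 56.8% with no filter and 95.4% with genes of at least 10 CPM. With 1 library left out it was 65.3% to 66.0%, and with the other settings run for it 70.7% to 75.4%.

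The 205 genes called without fulvestrant replicate 1 became 367 with only the 5 libraries and 96, 93 and 123 without a DMSO library as well; DESeq2, limma-voom, other size factors and no filter gave 258, 191, 187 and 204 (chosen after seeing the data). Fulvestrant on top of abemaciclib called 5 genes with DESeq2 size factors, 55 with DESeq2, and 0 to 96 with 1 library left out (0 without abemaciclib replicate 1, 1 without combination replicate 2, 96 without abemaciclib replicate 3). The mean effect called 6 genes without fulvestrant replicate 1. The interaction called 6 genes with the replicate block, 65 with DESeq2 and 449 without fulvestrant replicate 1, and the difference between lines 37, 374 and 615. The median log2 fold change of the oestrogen-induced list ran from -0.060 to 0.017 and that of E2F targets from -0.039 to 0.0075 with 1 library left out. The cause of these shifts was not tested.

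CCND1, KRT19, XBP1, RB1, GPER1, CDH1 and COL1A1, none of them called, turned their sign when 1 library was left out (GPER1 from -0.53 to 0.80, CCND1 from -0.073 to 0.017, KRT19 from -0.11 to 0.11, XBP1 from -0.19 to 0.017, RB1 from -0.0034 to 0.12, CDH1 from -0.42 to 0.11, COL1A1 from -0.31 to 0.14). With both first replicates left out, KRT19, XBP1 and CCNA2 turned to 0.063, 0.081 and 0.049. Whether replicate numbers pair the samples could not be settled. Same-numbered DMSO and fulvestrant libraries had correlations of their deviations of -0.02, -0.02 and 0.00. With 3 libraries per group and fulvestrant replicate 1 far from its group, such correlations can hardly show a pairing. The block left the count of fulvestrant against DMSO at 0, where it already was. It moved the interaction from 14 to 6 genes and the difference between lines from 135 to 37. Depth limits the genes under 10 CPM and those with 0 counts.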
